A study of Mus musculus with 6 samples.

Results

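The Wnt antagonists described here are 10 genes of 4 families: the secreted Frizzled-related proteins Sfrp1, Sfrp2, Sfrp4 and Sfrp5, the Wnt inhibitory factor Wif1, the Dickkopf proteins Dkk1, Dkk2 and Dkk3, and the Dact proteins Dact1 and Dact2. They were chosen by gene name out of 55291 genes in the table, and the choice was made with their levels in tight skin (TSK) and wild-type (WT) mice already known, so the values that follow describe them and no test of them is read as evidence. Of the 10, 9 passed the filter on low counts, which kept 19971 genes, and Dkk1 did not. Bulk RNA sequencing was done on shaved dorsal skin of 3 TSK mice and 3 WT littermates of the C57BL/6 strain, with 1 library per mouse. TSK mice were heterozygous for a duplication inside Fbn1, the gene of the microfibril protein fibrillin 1, kept by backcrossing to C57BL/6, and the WT mice carried no such allele. The sample labels give an age of 6 to 8 weeks and female sex, whereas the study's methods describe male mice of 8 weeks for this experiment. The Y-linked gene Ddx3y was at 56.7 to 72.8 CPM (counts per 1000000 counts of a library) and Xist, the X inactivation RNA, at 2.57 to 4.58 CPM across the 6 libraries. RNA of a Y-linked gene in every library goes with the male sex given in the methods and not with the labels. The libraries held 17561453 to 19219814 counts each.

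Wnt ligands bind Frizzled receptors together with the co-receptors Lrp5 and Lrp6, and in the canonical branch this stabilises β-catenin, which acts with TCF and LEF factors on target genes. Secreted Frizzled-related proteins and Wif1 bind Wnt ligands outside the cell, most Dickkopf proteins bind the co-receptors, and Dact proteins bind Dishevelled inside the cell. In skin this pathway is best known for the growth of hair follicles and for the differentiation of dermal fibroblasts, and several of its antagonists are made by fibroblasts and by the dermal papilla.

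The antagonists differed unevenly between TSK and WT skin. Dact2, Sfrp2, Sfrp4, Dact1 and Dkk2 had mean levels 3.77 to 20.9 times those in WT skin. Dkk3, Sfrp5 and Wif1 were higher in every TSK library than in every WT library, but by smaller amounts. Sfrp1, the most abundant of the 10 in WT skin, overlapped between the genotypes, and Dkk1 was close to the limit of detection. In the fit across all genes (edgeR's quasi-likelihood test, adjusted p below 0.05), 5 of the 10 were called higher in TSK skin, where 2.71% of all genes tested were called higher, and 0 were called lower, where 0.681% were. None was lower at an unadjusted p below 0.05, and DESeq2 and limma-voom also called 0 lower. With the thresholds of the study (adjusted p below 0.01 and a fold above 2.5), Sfrp2, Dact1 and Dact2 were called higher, 3 genes, beside 0.255% of all genes. This last count was 5 with DESeq2, the study's own tool, where 0.891% of all genes passed, but 1 without WT 1 and 0 without WT 3. The TSK libraries all lay above the WT libraries in 8 of the 9 that were tested, as they did in 29.1% of all genes tested. Since the genes were chosen with this contrast in view, nothing is read from these counts.

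**Figure D1:**
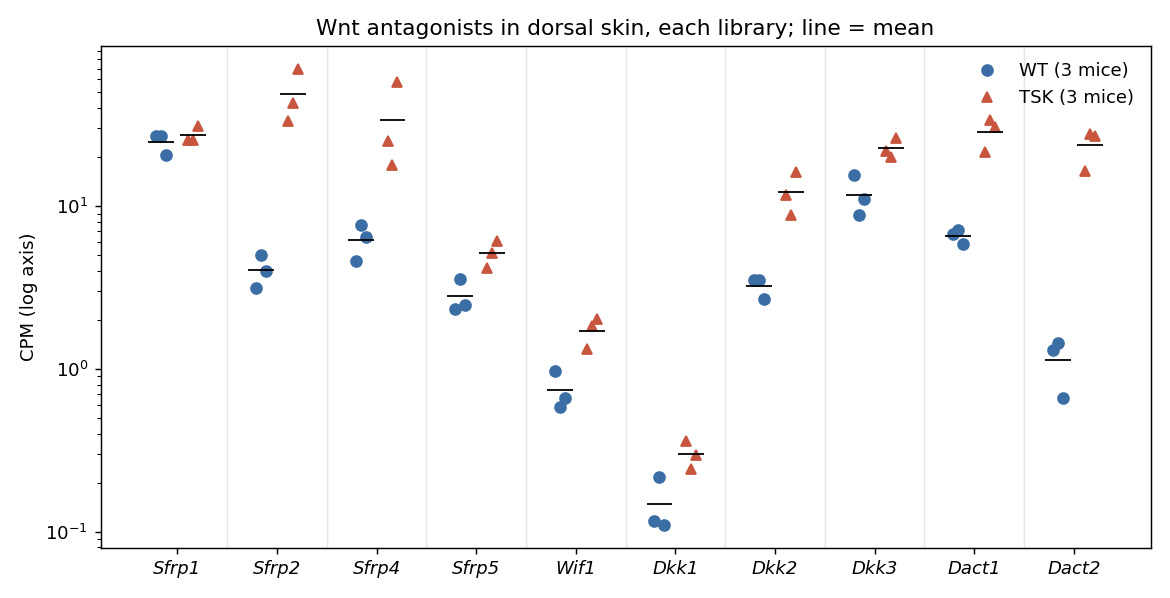
CPM of the 10 Wnt antagonists in each of the 6 libraries on a log axis, with WT mice as circles, TSK mice as triangles and the mean of each genotype as a line. Sfrp2 and Dact2 show the widest gaps between genotypes, and the points of Sfrp1 overlap.

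Promoter sequences of 4 of the 5 called genes are shown, since these genes were higher together in TSK skin. RefSeq promoters (assembly GRCm38.p6, from 250 bases before to 50 bases after a RefSeq start, 5′ to 3′ on the gene's strand) were matched by symbol for 7 of the 10 genes, which leaves Sfrp1, Sfrp4 and Dkk3 as names only. The RefSeq start can differ from the start of the gene in the annotation used for positions below. The Dact2 window lies wholly inside the annotated gene, downstream of its annotated start. The windows of Dkk1 and Wif1 also rest on starts inside the annotated gene. Capitals mark TATAAA, the TATA box core.
Dact2, chr17:14203782-14204081, minus strand: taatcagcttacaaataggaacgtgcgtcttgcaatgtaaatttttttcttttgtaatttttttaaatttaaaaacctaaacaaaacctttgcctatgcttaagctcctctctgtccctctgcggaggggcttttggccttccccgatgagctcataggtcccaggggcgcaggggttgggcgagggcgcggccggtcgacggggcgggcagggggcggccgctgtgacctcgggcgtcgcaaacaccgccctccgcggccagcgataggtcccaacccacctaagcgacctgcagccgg
Sfrp2, chr3:83766071-83766370, plus strand: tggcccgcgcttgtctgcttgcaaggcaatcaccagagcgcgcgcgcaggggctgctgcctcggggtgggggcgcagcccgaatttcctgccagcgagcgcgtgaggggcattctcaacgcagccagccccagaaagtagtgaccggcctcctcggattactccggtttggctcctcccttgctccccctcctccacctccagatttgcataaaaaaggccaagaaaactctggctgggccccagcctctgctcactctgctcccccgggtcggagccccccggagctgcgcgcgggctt
Dact1, chr12:71309634-71309933, plus strand: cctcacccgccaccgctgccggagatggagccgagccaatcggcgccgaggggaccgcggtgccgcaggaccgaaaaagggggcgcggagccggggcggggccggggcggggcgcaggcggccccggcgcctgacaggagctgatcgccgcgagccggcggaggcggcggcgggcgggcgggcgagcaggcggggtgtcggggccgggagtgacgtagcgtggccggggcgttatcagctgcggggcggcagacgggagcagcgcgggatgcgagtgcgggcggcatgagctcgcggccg
Dkk2, chr3:132085042-132085341, plus strand: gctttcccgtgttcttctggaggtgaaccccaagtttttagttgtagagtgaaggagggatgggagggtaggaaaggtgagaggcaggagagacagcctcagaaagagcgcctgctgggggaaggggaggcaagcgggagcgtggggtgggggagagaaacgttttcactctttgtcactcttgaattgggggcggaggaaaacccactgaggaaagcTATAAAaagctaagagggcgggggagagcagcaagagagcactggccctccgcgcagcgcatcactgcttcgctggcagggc

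The 4 promoters differed in composition. The Dact1 promoter was 79.7% G and C, above 98.8% of the 32851 promoters in the reference, and held 50 CG pairs, where the median promoter held 7. The G and C content was 66.0% for Sfrp2, 57.7% for Dkk2 and 56.7% for Dact2, against a median of 52.7%, with 22, 11 and 23 CG pairs. The letters CTTTGA, the core bound by TCF and LEF factors, were searched on both strands and were found in none of these 4, nor in the promoters of Sfrp5 and Wif1. The Dkk1 promoter held it 2 times, and 16% of all promoters held it at least once. TATAAA, also searched on both strands, stood in 13.6% of all promoters. It was found in those of Dkk2, where it begins 32 bases before the start, and of Dkk1 and Wif1. These matches describe the letters of a window of 300 bases and no binding was measured.

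Among the secreted Frizzled-related proteins, Sfrp2 differed most. Sfrp2 (chromosome 3, 83766321 to 83774316) binds Wnt ligands through a domain like that of Frizzled and is a known product of dermal fibroblasts. It was found at 3.13, 5.004 and 4.01 CPM in WT mice 1 to 3 and 33.4, 42.9 and 69.8 CPM in TSK mice 1 to 3. The lowest TSK library was several times above the highest WT library, and TSK 3 was the highest of all. The means were 4.05 ± 0.937 CPM in WT and 48.7 ± 18.9 CPM in TSK (SD, n = 3 mice each, as for all means given here), and the log2 fold change, TSK minus WT, was 3.28 (SE 0.32), which ranked 34th from the top among all genes tested. It stayed between 2.95 and 3.58 over 16 other settings of the analysis.

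Sfrp4 (chromosome 13, 19623104 to 19632994), a family member known from bone and connective tissue, was at 4.61, 7.62 and 6.44 CPM in the WT libraries. In TSK 1 to 3 it was at 25.3, 17.9 and 57.9 CPM. All TSK libraries were above all WT libraries, but TSK 3 stood well apart from the other two. The means were 6.22 ± 1.52 and 33.7 ± 21.3 CPM, and the log2 fold change was 2.12 (SE 0.44). It fell to 1.51 without TSK 3, and the gene was called in 1 of the 6 fits that left out a library, the one without TSK 2. The adjusted threshold was missed without WT 1, WT 2, WT 3, TSK 1 or TSK 3, and also by limma-voom with all libraries (log2 fold change 2.02).

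Sfrp1 (chromosome 8, 23411502 to 23449632), a well studied inhibitor of the family, did not separate the genotypes. It was at 27.1, 27.0 and 20.6 CPM in WT mice 1 to 3 and at 25.6, 25.3 and 31.2 CPM in TSK mice 1 to 3. The groups overlapped on the CPM scale, with TSK 3 highest and WT 3 lowest. The log2 fold change was -0.15 (SE 0.16) after TMM scaling but 0.14 when only library size was used, so its sign depends on the scaling. With library size alone the median over all genes tested was 0.25, against -0.03 with TMM, and CPM values carry the same shift.

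Sfrp5 (chromosome 19, 42197971 to 42202252), known from adipose tissue, was at 2.34, 3.57 and 2.47 CPM in WT and at 4.18, 5.15 and 6.10 CPM in TSK. Every TSK library was above every WT library, though TSK 1 and WT 2 were close. The log2 fold change was 0.58 (SE 0.27) and was called in 0 of 16 other settings.

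Wif1 (chromosome 10, 121033960 to 121100650), which binds Wnt ligands through its own WIF domain, was low. It was at 0.968, 0.586 and 0.660 CPM in WT mice 1 to 3 and at 1.32, 1.82 and 2.01 CPM in TSK mice 1 to 3. The TSK values were all higher, and the log2 fold change was 0.95 (SE 0.30), which did not pass the threshold in any of the 16 settings.

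The Dickkopf genes differed among themselves. Dkk2 (chromosome 3, 132085292 to 132180304), which can block or, in some contexts, aid signalling through Lrp6, was at 3.51, 3.52 and 2.68 CPM in WT mice 1 to 3. In TSK 1 to 3 it was at 11.6, 8.80 and 16.2 CPM. The groups were well apart, with means of 3.24 ± 0.479 and 12.2 ± 3.75 CPM and a log2 fold change of 1.63 (SE 0.25). It was called in 15 of the 16 settings and missed the threshold without WT 3, where the log2 fold change was 1.53.

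Dkk3 (chromosome 7, 112116017 to 112159057), a divergent Dickkopf protein whose effect on Wnt signalling is less settled, was at 15.4, 8.84 and 11 CPM in WT and at 21.8, 20.1 and 26.3 CPM in TSK. The TSK libraries were again all higher, with WT 1 nearest to them. The log2 fold change of 0.69 (SE 0.17) was not called, and it was called in 6 of the 16 settings, among them the fit without WT 1, where it was 0.86.

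Dkk1 (chromosome 19, 30545863 to 30549665), a strong inhibitor of the co-receptors, was the gene left out by the filter. Its estimated counts were 2.03, 4.05 and 2 in the WT libraries and 6.53, 4.65 and 5.54 in the TSK libraries. A floor of 3 counts per library corresponds to 0.156 to 0.171 CPM. Every TSK library was above every WT library, with TSK 2 and WT 2 close, at counts near this floor. The main fit gives no fold change for it. The fits that kept it gave a log2 fold change of 0.82 (no low-count filter) and 0.85 (DESeq2), called in neither, so a difference was not detectable at this depth.

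The Dact genes were called at both thresholds in the main fit. Over the 16 other settings the study's thresholds were passed by Dact2 in 15, all but the fit without WT 3, and by Dact1 in 10, with limma-voom and the fits without WT 1 and without WT 3 among those it failed. Dact2 (chromosome 17, 14195052 to 14204304), an intracellular partner of Dishevelled that also acts on TGF-β receptors, was at 1.31, 1.44 and 0.660 CPM in WT mice 1 to 3. It was at 16.4, 27.8 and 27.0 CPM in TSK mice 1 to 3. No WT library came near any TSK library. The means were 1.14 ± 0.417 and 23.8 ± 6.34 CPM, and the log2 fold change of 4.09 (SE 0.31) ranked 12th among all genes tested. It lay between 3.52 and 4.39 over the 16 other settings.

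Dact1 (chromosome 12, 71309884 to 71320107), the best known member of the family, was at 6.78, 7.13 and 5.83 CPM in WT and at 21.6, 33.7 and 30.7 CPM in TSK. The WT libraries were tightly grouped, at 6.58 ± 0.675 CPM, and far below the TSK libraries, at 28.7 ± 6.32 CPM. The log2 fold change was 1.83 (SE 0.19) and lay between 1.71 and 2.12 over the other settings. At adjusted p below 0.05, Dact1, Dact2 and Sfrp2 were each called in all 16.

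The annotation places genes on the opposite strand over exons of 3 of the 10. Gm26771 shares 347 exon bases with Sfrp2, and its deposited count was at most 2 in a library. 4930474H06Rik shares 1313 exon bases with Dact1 and was at 0 in all 6 libraries. AC151292.1 shares 73 exon bases with Dact2 and had no row under that name. The libraries were stranded, but whether the strand was used in counting is not given in the sources used here, so reads on either strand of those bases may count towards Sfrp2, Dact1 and Dact2. No stretch of 50 bases, the length of a read, was shared between the transcripts of any pair of the 10 genes, and at most 1.18% of such stretches in any of them, for Dkk1, matched a gene elsewhere.

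Levels of different genes can be compared only per length. On the scale of CPM per kilobase of merged exons, WT skin was led by Sfrp1 at 5.69 ± 0.856, followed by Dkk3 at 3.50 ± 1.00. Sfrp2, Dact1, Sfrp4 and Sfrp5 came next, at 1.88, 1.75, 1.49 and 1.47, and each overlapped with its neighbour in this order. Dkk2 was at 0.874, below them without overlap. Dact2 and Wif1, at 0.336 and 0.304, overlapped with each other, and Dkk1 was last at 0.0606, under the floor of counts.

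In TSK skin the order was different. Sfrp2 led at 22.6 ± 8.78 CPM per kilobase and did not overlap with the gene below it. Sfrp4, Dact1, Dact2, Dkk3 and Sfrp1 followed at 8.06, 7.62, 7.03, 6.77 and 6.26, each overlapping with the next. Dkk2 at 3.30 and Sfrp5 at 2.71 overlapped as well, and Wif1 at 0.708 and Dkk1 at 0.123 were last. By group means Sfrp1 thus stood behind 5 others while its own CPM overlapped between genotypes, but single libraries differed, and in TSK 1 it was above Dact1 and Dact2. The order was the same in both genotypes when the longest transcript was used for length.

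**Figure D2:**
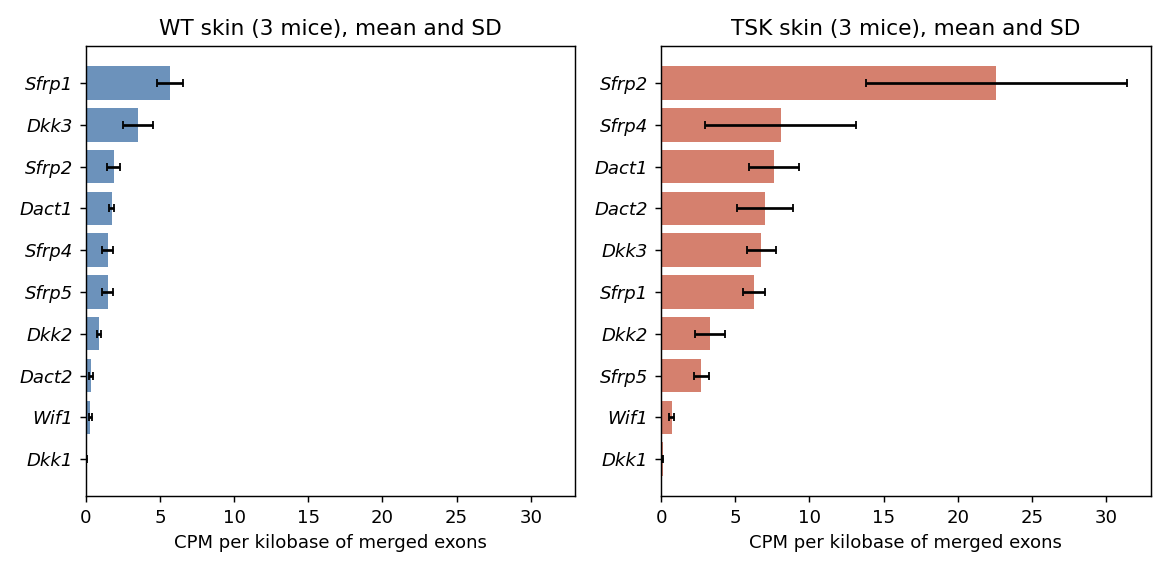
Mean CPM per kilobase of merged exons with SD over 3 mice, for the 10 Wnt antagonists in WT skin and in TSK skin, each sorted by level. Sfrp1 leads in WT skin at 5.69, and Sfrp2 leads in TSK skin at 22.6.

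The summed level of the 10 genes was 18.2, 18.4 and 15.5 CPM per kilobase in WT mice 1 to 3 and 50.5, 59.1 and 86.0 in TSK mice 1 to 3. Within this sum Sfrp1 held 32.7% ± 1.99 in WT skin and 9.90% ± 1.64 in TSK skin. The share of Sfrp2 was 10.9% ± 2.51 in WT and 34.0% ± 3.53 in TSK, and that of Dact2 was 1.90% ± 0.561 and 10.9% ± 2.59. Shares of Dkk2 were close in both, at 5.02% ± 0.291 and 5.11% ± 1.09. These shares describe RNA of the whole tissue, in which a greater number of cells of a type and more RNA per cell cannot be told apart.

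**Figure D3:**
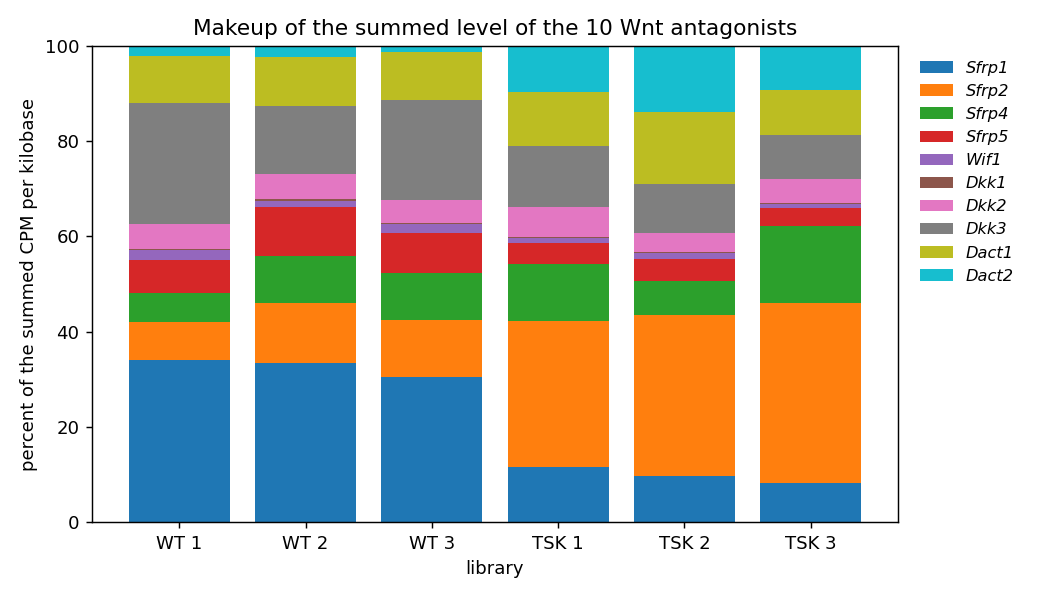
Percent of the summed CPM per kilobase of the 10 Wnt antagonists that each gene holds, as stacked bars for each library. Sfrp1 takes 30.4% to 34.1% in WT libraries and 8.31% to 11.6% in TSK libraries, while Sfrp2 takes 8.01% to 12.6% and 30.7% to 37.7%.

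Markers of several cell types moved with genotype. For all genes tested, edgeR called 2.71% higher and 0.681% lower, and DESeq2 called 3.26% higher. An unadjusted p below 0.05, in either direction, was reached by 3899 of 19971 genes with limma-voom. With edgeR on DESeq2 size factors it was reached by 3974. These values are the background for the counts of each list that follows. All 12 fibroblast genes of the list had a positive log2 fold change (median 1.19, with 3 called higher by edgeR and 10 by DESeq2, and 10 at an unadjusted p below 0.05), and their summed level was 6505 to 9860 CPM in WT libraries and 20860 to 48110 CPM in TSK libraries. Of the fascia fibroblast genes, 6 of 7 tested were called higher (median 2.03), with a summed level of 193 to 234 CPM in WT and 490 to 862 CPM in TSK. The dermal papilla list, which shares Notum and Rspo3 with the Wnt lists, had 1 of 8 genes called higher (median 0.68) and sums of 11.2 to 16.4 and 26.2 to 36.0 CPM. All 9 adipocyte genes were positive (median 2.88, 3 called higher by edgeR and 7 by DESeq2, and 8 at an unadjusted p below 0.05), from 339 to 431 CPM in WT and 651 to 2885 CPM in TSK. TSK 2 was the highest library for each of the 9, with Adipoq at 47.8, 247 and 33.3 CPM in TSK mice 1 to 3. Of 10 genes of adult skeletal muscle, 9 were negative (median -0.80, 0 called lower by edgeR, with 6 at an unadjusted p below 0.05, 8 called by DESeq2 and 0 by limma-voom), with sums of 153200 to 223000 and 131200 to 150900 CPM. Their part in the levels of the antagonists was not tested. Fbn1 itself was at 272 ± 14.2 CPM in WT and 1943 ± 377 CPM in TSK, a log2 fold change of 2.54 (SE 0.22, adjusted p 0.00327).

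Other lists were as follows. Called higher were 1 of 8 genes of the hair follicle bulge (median 0.25), 3 of 8 of the hair shaft and inner root sheath (1.23) and 2 of 9 of keratinocytes (0.32), namely Lor (1.78) and Krtdap (1.72). The other 7 keratinocyte genes were not called, among them Krt1, Krt5 and Krt14 with negative values and Krt10 and Dsg1a with positive ones. The lists of smooth muscle and pericytes, with 1 of 8 called, and of endothelium, with 2 of 8, had medians of 0.67 and 0.88. DESeq2 called 5 and 3 of them, 6 and 7 were higher at an unadjusted p below 0.05, and their summed levels went from 313 to 385 CPM in WT libraries to 560 to 737 CPM in TSK libraries and from 150.5 to 178 CPM to 268 to 448 CPM. By edgeR and by limma-voom, 0 genes were called among 7 of Schwann cells (0.50), 8 of macrophages (0.97) and 5 of melanocytes (0.98), where 3, 6 and 3 were higher at an unadjusted p below 0.05 and DESeq2 called 0, 3 and 1. No marker with a row in the table was at 0 in all 6 libraries, and the part of these lists in the levels of the antagonists was not tested either. The median over all genes tested was -0.03.

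Set against the fibroblast list in each library, the antagonists fell into groups. The quantity is log2(CPM + 0.1) of the gene minus the mean of the same over the 12 fibroblast genes. That mean itself was 6.75 ± 0.256 in WT and 8.11 ± 0.505 in TSK. Relative to it, Dact2 was at -5.96, -6.27 and -7.31 in WT mice 1 to 3 and at -3.66, -3.14 and -3.92 in TSK mice 1 to 3, a difference of 2.94. Sfrp2 went from a mean of -4.72 ± 0.173 to -2.57 ± 0.0615, a difference of 2.16. Sfrp4 differed by 0.91, and for these 3 genes every TSK library was above every WT library.

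Dact1 and Dkk2 overlapped between the genotypes on this relative scale, with differences of 0.73 and 0.49, as did Dkk1, Dkk3 and Wif1. Sfrp1 and Sfrp5 were lower relative to the fibroblast list in every TSK library, by 1.21 and 0.49, though for Sfrp5 the nearest libraries nearly touched (-5.55 in both WT 3 and TSK 2). This grouping depends on the pseudocount: with 1 in place of 0.1, 3 genes were above, 4 below and 3 overlapping, against 3, 2 and 5. The share of all genes in each group was not computed on this scale. The fibroblast mean was itself 1.36 higher in TSK, so a gene with equal CPM in both genotypes lies lower here. The counts are therefore not read as a trait of the antagonists. Against the fascia fibroblast list in its place, 2 genes stayed above, Dact2 with a difference of 2.40 and Sfrp2 with 1.61, while Sfrp4 overlapped and Sfrp1, Sfrp5, Dkk1, Dkk3 and Wif1 were lower in every TSK library. The relative values are descriptive, and no cell type is assigned to the RNA by them.

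**Figure D4:**
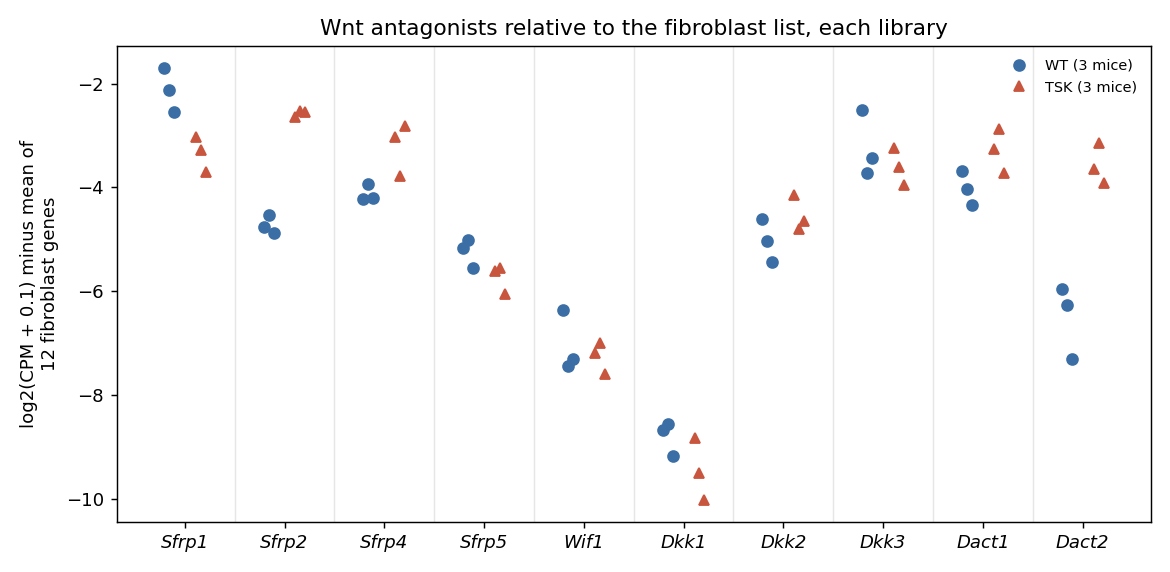
Level of each Wnt antagonist relative to 12 fibroblast genes, as log2(CPM + 0.1) minus their mean, for each WT library (circles) and TSK library (triangles). Sfrp2, Sfrp4 and Dact2 lie higher in all TSK libraries, and Sfrp1 and Sfrp5 lie lower.

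Further antagonists outside the 10 gave a mixed picture. Of 17 listed, 14 were tested, 1 was called higher and 1 lower, and the median log2 fold change was 0.19. For this and the Wnt lists below, the shares over all genes tested were 2.71% higher and 0.681% lower. Frzb, which is a secreted Frizzled-related protein too, was the one that fell. It was at 14.6, 17.6 and 19.6 CPM in WT mice 1 to 3 and at 10.6, 7.23 and 8.16 CPM in TSK mice 1 to 3, all lower than in WT, with a log2 fold change of -1.29 (SE 0.23, adjusted p 0.0236). It went in the opposite direction to Sfrp2 and Sfrp4 of the same family. The call was lost without WT 2, WT 3, TSK 2 or TSK 3, and the sign was negative in all 16 settings.

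Dkkl1, a relative of the Dickkopf proteins best known from the testis, rose by 1.44 on the log2 scale (SE 0.27, adjusted p 0.0299), between means of 2.99 ± 0.616 and 9.85 ± 2.79 CPM. This call was lost without WT 2, WT 3, TSK 1 or TSK 2. Dact3, the third Dact gene, was at 3.01 ± 0.850 and 6.91 ± 2.33 CPM, a log2 fold change of 0.89 that did not pass the test (adjusted p 0.182). Notum, an enzyme that removes the lipid from Wnt ligands, had 2.495 (SE 0.62, adjusted p 0.0680) at levels of 0.187 ± 0.185 and 1.27 ± 0.573 CPM. Its WT counts were 7, 1 and 2, so it passed the filter through its TSK libraries and its fold is uncertain. With a library left out, the log2 fold change ran from 2.08 without TSK 1 to 3.54 without WT 1. By limma-trend on log2(CPM + 1) it was 0.92. Notum was called in 7 of the 15 other settings that kept it, among them DESeq2 (adjusted p 0.0201) and the replicate block (adjusted p 0.0304). Given the low WT counts, nothing is read from these calls.

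The receptors of Dickkopf proteins, Kremen1 and Kremen2, had log2 fold changes of 0.09 and 0.06. Apcdd1, a membrane inhibitor of hair follicles, had 0.61 (adjusted p 0.108), Ctnnbip1, which binds β-catenin, 0.47, Draxin, which binds Lrp6, 0.43 and Trabd2b, a protease of Wnt ligands, 0.28. Values below 0 were found for Shisa2 at -0.57 and Shisa3 at -0.42, whose proteins hold Frizzled receptors inside the cell, and for the co-repressor Tle5 at -0.41 and Sostdc1, an inhibitor of Lrp6 and BMP ligands, at -0.24, none of which passed the test. Dact3, Apcdd1 and Ctnnbip1 were each called in 3 of the 16 other settings and Shisa2 in 1, without WT 1. Kremen2 and Sostdc1 changed sign in some settings. Dkk4 and Cer1 were too low to be tested, and Sost was at 0 in all 6 libraries.

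**Figure D5:**
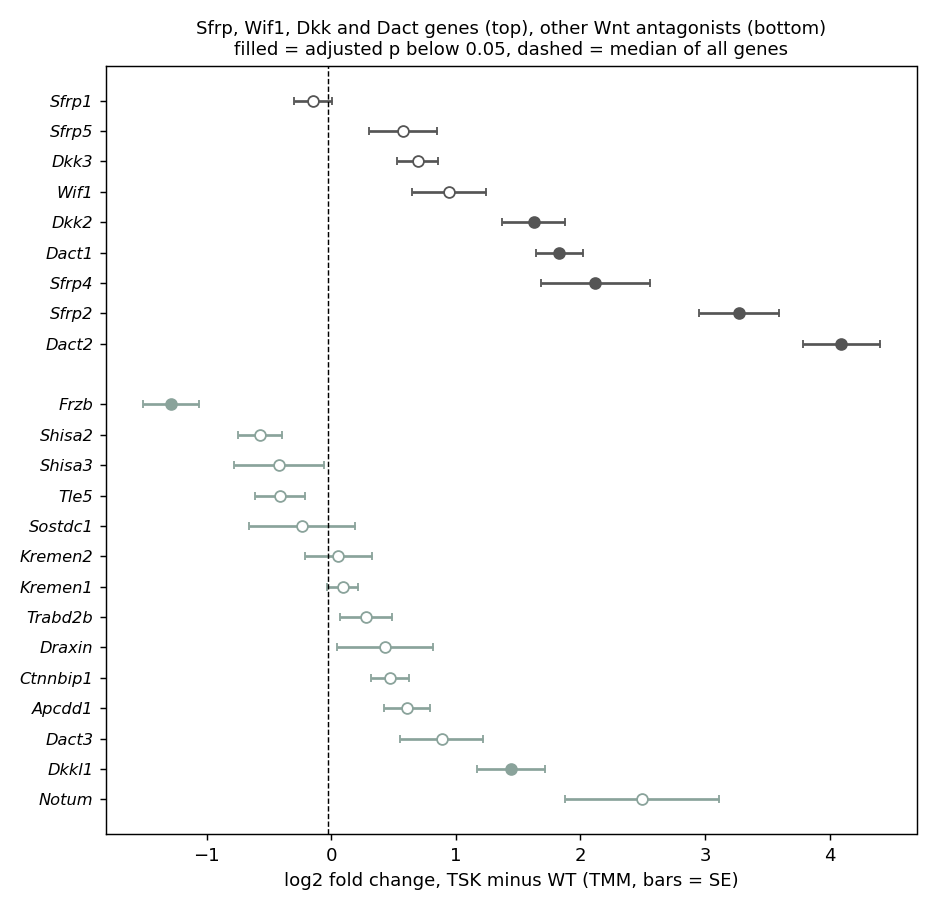
Log2 fold change (TSK minus WT) with SE for the 9 tested genes of the Sfrp, Wif1, Dkk and Dact families and for 14 further Wnt antagonists. Filled points are called at adjusted p below 0.05 and the dashed line is the median of all genes, -0.03. Values run from -0.15 for Sfrp1 to 4.09 for Dact2 in the upper group and from -1.29 for Frzb to 2.495 for Notum in the lower.

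Wnt ligands are bound directly by the Sfrp proteins and Wif1. Of 21 genes of Wnt ligands and their secretion, 16 were tested and 3 were called higher by edgeR, with 0 lower (1 lower at an unadjusted p below 0.05, and 0 by DESeq2 and limma-voom). Wnt10b, a canonical ligand active in skin and hair follicles, was at 2.05, 1.49 and 1.37 CPM in WT mice 1 to 3 and at 10.6, 12.6 and 18.8 CPM in TSK mice 1 to 3. Its log2 fold change of 2.82 (SE 0.25, adjusted p 0.00330) was called in all 16 other settings. Wnt2 rose by 2.99 (SE 0.44, adjusted p 0.0148), from 1.14 ± 0.223 to 11.1 ± 6.69 CPM, and Wnt2b by 2.76 (SE 0.44, adjusted p 0.0177), from 0.238 ± 0.0248 to 2.01 ± 0.835 CPM. The WT counts of Wnt2b were 4, 5 and 4, near the floor of 3, so it passed the filter through its TSK libraries and its fold is uncertain, with a log2 value of 1.25 by limma-trend on log2(CPM + 1). Wnt2 and Wnt2b were called in 15 of 16 settings and missed the threshold without WT 3. The median over the list was 0.12.

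Among receptors and the R-spondin axis, 2 of 20 tested genes were called higher, with a median of 0.15. Fzd2, a Frizzled receptor, rose by 0.79 (SE 0.15, adjusted p 0.0329), from 11.8 ± 3.01 to 24.6 ± 3.21 CPM. Ror2, a co-receptor of the non-canonical branch, rose by 1.12 (SE 0.24, adjusted p 0.0410). In the relay from Dishevelled to β-catenin, 1 of 16 genes was called higher, the TCF family repressor Tcf7l1 at 0.76 (SE 0.15, adjusted p 0.0342), and the median was 0.11. Leaving out any of WT 2, WT 3, TSK 1, TSK 2 or TSK 3 ended the calls of Fzd2, Ror2 and Tcf7l1, and Ror2 was also lost without WT 1. The call of Tcf7l1 was lost under upper quartile scaling too (0.72, adjusted p 0.0509).

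Of 12 target genes of β-catenin that were tested, 1 was called higher, 6 were positive and 6 negative, with a median of -0.01. At an unadjusted p below 0.05, 4 were higher and 0 lower, and DESeq2 called 3 higher. Lef1, both a target and a partner of β-catenin, was at 3.57, 2.20 and 2.17 CPM in WT mice 1 to 3 and at 7.32, 6.24 and 6.86 CPM in TSK mice 1 to 3. Its log2 fold change was 1.11 (SE 0.21, adjusted p 0.0299), and the call was lost without WT 2, WT 3, TSK 1, TSK 2 or TSK 3. The feedback inhibitors Nkd1 and Nkd2 were above WT in every TSK library, with log2 fold changes of 1.23 (SE 0.30, adjusted p 0.0670) and 0.89 (SE 0.22, adjusted p 0.0680) that did not pass the test. Axin2, the most widely used readout of the canonical branch, was at 46.2, 28.2 and 31.5 CPM in WT and at 44.9, 38.9 and 35.1 CPM in TSK. The groups overlapped and the log2 fold change was -0.09 (SE 0.16, adjusted p 0.818), with a positive sign when only library size was used. Over all 90 genes of these further Wnt lists, 78 were tested, 8 were called higher and 1 lower, and the median was 0.10. Of all genes tested, 2.71% were called higher and 0.681% lower, and nothing is read from the counts of these lists.

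Likeness of pattern was measured as the root mean square difference between log2 CPM profiles over the 6 libraries, each centred on its own mean, among 12017 genes with a mean of at least 5 CPM. The profile of Sfrp2 was closest to Islr2 (0.19), Pi16 (0.23), Ildr2 (0.29), Lyz1 (0.40) and Mfap5 (0.40), and that of Dact2 to Islr2 (0.42), Ccn3 (0.44), Retnla (0.47), Sfrp2 (0.58) and Ildr2 (0.59). Sfrp4 was closest to the collagen gene Col1a1 (0.24), then Lbp (0.27), Ntn1 (0.28), Adam33 (0.33) and Col1a2 (0.33). Dact1 was closest to Adamts5 (0.12), Crispld1 (0.13), Ebf1 (0.14), Prelp (0.16) and Heg1 (0.17), and Dkk2 to Ackr1 (0.18), Akap12 (0.19), Engase (0.19), Kcp (0.20) and Ptpru (0.21). Pi16 is also on the fascia fibroblast list and Col1a1 and Col1a2 are on the fibroblast list. Between the antagonists themselves, taken without the minimum of 5 CPM, the closest pair was Dkk3 and Wif1 (0.19), though Wif1 is low and the prior count of 2 used for log2 CPM flattens low profiles. Dkk2 and Dact1 came next (0.36), and the farthest pair was Sfrp1 and Dact2 (2.10). These distances are descriptions over 6 libraries that fall into the 2 genotypes.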

How the data were processed

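RNA was measured in dorsal skin of 3 TSK and 3 WT mice. The authors prepared stranded, rRNA-depleted total RNA libraries, sequenced single-end reads of 50 bases, demultiplexed them with bcl2fastq 2.19.1.403, aligned them with STAR to mm10 and quantified genes in Partek Flow (11.0 in the submitters' processing notes) with Ensembl release 100. The deposited gene table, named as raw, holds estimated counts, since only 43.3% to 45.4% of non-zero values per library were whole (within 0.001). They were rounded before testing. The deposited CPM values are counts per 1000000, scaled within each library by the authors, and were used for levels. Totals were 17561453 to 19219814 counts per library, and 0 columns were unmapped. The floor of 3 counts concerns counting error only, whereas the SD and SE values include variation between mice.

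TSK and WT were compared with edgeR 4.0.16 (R 4.3.3) by the quasi-likelihood test, with TMM scaling, filterByExpr and Benjamini-Hochberg adjustment over 19971 genes, after a check on simulated data. Positive log2 fold changes mean higher in TSK, and errors of means are SD over mice. Alternatives covered scaling, DESeq2 1.42.0 (the study's tool), limma 3.58.1 on counts (voom) and on log2(CPM + 1 or + 0.1), the filter, a block for replicate number, and each library left out in turn. Levels per length used merged exons of GENCODE M21. P-values test the difference between genotypes against the variation among libraries of the same genotype, which is estimated with information from all genes. The spread between mice is given by the SD.

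The 10 antagonists, the Wnt and marker lists and the tests were chosen with earlier results of these data known. Named were all 10, Fbn1, the tested further antagonists, up to 5 called genes of each other Wnt list and the 5 genes most alike in pattern to each called antagonist. Axin2, Nkd1, Nkd2, the keratinocyte genes, the hair shaft genes, Adipoq and Wnt1 were named after their values were seen. The single-cell data of the study were not analysed here.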

Additional observations from a re-analysis of the deposited data

How the results depend on the processing

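Over the alternatives, Sfrp2, Dact1 and Dact2 kept their direction and stayed past adjusted p 0.05, and Sfrp4, Dkk2, Dkk3, Sfrp5 and Wif1 kept a positive sign. The number of the 10 antagonists called higher, 5, was 6, with Dkk3 added, with library size only (8.44% of all genes tested called higher), DESeq2 (3.26%), limma-trend on log2(CPM + 1) (8.87%) or log2(CPM + 0.1) (8.82%) and no low-count filter (2.99%). It was 4 with limma-voom (2.17%) and 3 to 5 when a library was left out (3 without WT 3, 0.218%), and at the study's thresholds, 3, it was 0 to 3 (1 without WT 1, 0 without WT 3). That count was 2 with limma-voom, where 0.105% of all genes tested passed, and 5 with library size only (1.45%), DESeq2 (0.891%), limma-trend on log2(CPM + 1) (1.35%) or log2(CPM + 0.1) (1.57%), or no low-count filter (0.847%), against 0.255%. Without WT 3, 0.00484% of all genes tested passed. Of the further Wnt genes, 8 were called higher, against 17 with library size only, 13 with DESeq2, 19 with limma-trend at either pseudocount and 14 without the filter, and 1 to 14 with a library left out, while 0 to 2 were called lower. The cause of these moves was not tested. Sfrp1 turned positive with library size only (0.14), limma-trend on log2(CPM + 1) (0.14) and on log2(CPM + 0.1) (0.14), and ran from -0.24 to 0.0063 with a library left out. Sostdc1 turned to 0.21 and 0.25 in the limma-trend fits and ran from -0.58 to 0.49 with a library left out. Axin2 turned to 0.17 with library size only and 0.19 in both limma-trend fits and ran from -0.21 to 0.075 with a library left out. Kremen2 ran from -0.070 to 0.27 with a library left out, below 0 without WT 2 or TSK 1. Replicate numbers are shared between genotypes, but deviations of same-numbered libraries correlated at 0.0112, 0.167 and -0.0938, so the numbers were not taken to pair the mice. With a replicate block the counts were 5 antagonists higher (3.33% of all genes tested), 3 at the study's thresholds (0.421%) and 9 further Wnt genes higher, and no call among the 10 changed, while Notum became called. Depth limits what can be said of Dkk1.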

Other observations

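Wnt1, a canonical ligand, was outside the comparison because it did not pass the filter on low counts, and it is named here after its values were seen. Its estimated counts were 0, 1 and 0 in WT mice 1 to 3 and 8, 13 and 18 in TSK mice 1 to 3. All 3 TSK libraries were above the floor of 3 counts and no WT library reached it. No test was run on this gene alone.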
